A study of Mus musculus with 12 samples.

Results

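The keratin genes Krt7, Krt8, Krt18 and Krt19 and the claudin genes Cldn3, Cldn4, Cldn6 and Cldn7, 8 genes of simple epithelia, were followed in mouse embryonic stem cells before and during early differentiation. They were found by gene name among the 41174 non-control probes of the arrays, which gave 10 probes, with 2 each for Krt7 and Krt8 and 1 for every other gene. All 10 probes were well above background on all 12 arrays and none was saturated, so all 8 genes were among the 17727 genes tested. The cells are of strain 129, and total RNA of each sample was hybridised to 1 array in 1 colour. The 6 groups of 2 arrays were undifferentiated cells with leukaemia inhibitory factor (LIF) in their titles, and embryoid bodies at day 1, day 3 and day 4, and also mono layer cultures at day 1 and day 3. Embryoid bodies (EB) are aggregates of differentiating cells grown in suspension, and mono layer cultures (ML) are cells grown as a single sheet. No genotype change and no agent other than LIF is given in the sources used here, nor is the medium or the use of feeder cells. The arrays of a group are labelled clone 1 and clone 2 and are called replicate 1 and replicate 2 below. The submitters state 2 independent experiments by different people, but the labels do not say that clones were separate cultures, so p-values measure the spread between these arrays only.

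Simple epithelial keratins build the intermediate filaments of single-layered epithelia, and a filament needs a type II keratin (Krt7 or Krt8) paired with a type I keratin (Krt18 or Krt19). Krt8 and Krt18 are among the first intermediate filament genes used by the mouse embryo, in the trophectoderm and then in the extraembryonic endoderm, and they are known to be switched on when embryonic stem cells differentiate. Claudins are membrane proteins that form the strands of tight junctions and set how leaky an epithelial sheet is. Cldn6 is known as an early epithelial marker of differentiating mouse embryonic stem cells, Cldn7 is a basolateral claudin that associates with Epcam, and Cldn3 and Cldn4 are sealing claudins that also act as receptors of a bacterial enterotoxin.

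The probes lie on the transcripts of these genes at positions given by the scanner files in build mm9. Krt7 (chr15:101258172-101258231), Krt8 (chr15:101827214-101827273) and Krt18 (chr15:101862341-101862400) share a chromosome, and Krt8 and Krt18 are neighbours with 0 protein-coding genes between them in the RefSeq table. Krt19 lies at chr11:100002392-100002451 and Cldn7 at chr11:69780780-69781089. The Cldn7 probe has 60 bases over a genome span of 310 bases, so it crosses a splice junction. Cldn3 (chr5:135463179-135463238) and Cldn4 (chr5:135421347-135421406) are also direct neighbours, and Cldn6 (chr17:23819027-23819086) is a neighbour of Cldn9. Whether a probe also binds a related copy of its gene was not tested, since no genome was used here.

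The upstream sequences of 4 genes are shown because the neighbours Krt8 and Krt18 moved together across the arrays, while the claudins Cldn4 and Cldn6 moved in opposite directions. Each is the 250 bases before the gene's start in RefSeq (GRCm38.p6), read 5′ to 3′ on the gene's strand, and 7 of the 8 genes had an entry. Capitals mark matches to 3 motifs on either strand, which are CAGGTG (the E-box bound by Snail and Zeb factors, CACCTG on the other strand), GGGCGG (the GC box, CCGCCC on the other strand) and TGANTCA (the AP-1 site).
Krt8 (chr15:102004343-102004592, minus strand): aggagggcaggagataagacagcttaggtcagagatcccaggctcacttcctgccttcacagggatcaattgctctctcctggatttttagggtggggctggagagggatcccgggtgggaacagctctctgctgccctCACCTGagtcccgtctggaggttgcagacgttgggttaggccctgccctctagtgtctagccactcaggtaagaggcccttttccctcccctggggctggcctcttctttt
Krt18 (chr15:102027966-102028215, plus strand): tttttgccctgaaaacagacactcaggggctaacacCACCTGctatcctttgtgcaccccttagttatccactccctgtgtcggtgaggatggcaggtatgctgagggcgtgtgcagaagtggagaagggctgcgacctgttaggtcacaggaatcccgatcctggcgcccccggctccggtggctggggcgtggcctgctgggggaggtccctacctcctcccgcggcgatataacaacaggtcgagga
Cldn4 (chr5:134946935-134947184, minus strand): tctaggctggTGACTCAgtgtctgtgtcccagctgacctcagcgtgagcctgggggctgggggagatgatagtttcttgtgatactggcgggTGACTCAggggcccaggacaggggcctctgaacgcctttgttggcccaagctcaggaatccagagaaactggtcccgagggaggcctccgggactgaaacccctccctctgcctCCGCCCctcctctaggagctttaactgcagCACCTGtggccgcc
Cldn6 (chr17:23679115-23679364, plus strand): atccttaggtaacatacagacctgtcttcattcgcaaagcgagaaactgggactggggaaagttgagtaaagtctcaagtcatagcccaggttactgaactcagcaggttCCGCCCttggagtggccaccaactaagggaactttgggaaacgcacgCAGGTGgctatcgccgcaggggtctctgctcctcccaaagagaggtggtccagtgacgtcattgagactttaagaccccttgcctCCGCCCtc

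The E-box letters CAGGTG occurred in 17.2% of 32851 RefSeq upstream windows of this length. They were found at 111 bases before the start in Krt8, 214 in Krt18, 14 in Cldn4 and 93 in Cldn6, and also in the windows of Krt7 and of the downstream start of Cldn7, but not in that of Cldn3. TGANTCA, present in 6.75% of windows, occurred in Cldn4 alone among the windows of these genes, at 240 and 158 bases before the start. GGGCGG was present in 32.7% of windows and in those of Krt7, Cldn3, Cldn4, Cldn6 and the downstream start of Cldn7. TATAAA (12.4% of windows) and AACCGGTT, a Grainyhead-like site (0.116% of windows), were in none. The motifs were chosen after these sequences had been seen, and a match is a description of letters, not of binding.

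Levels below are log2 signals relative to the 75th percentile of the array, so that 0 is the level of that percentile and a difference of 1 is a doubling. Levels of different probes are not compared with each other. The undifferentiated arrays lie on slide 1 and were scanned on day 1, EB day 1 and day 3 on slide 2 and ML day 1 and day 3 on slide 4 on scan day 2, and EB day 4 on slide 3 on scan day 3 with another scanner. Slide and scan day cannot be told apart from group for undifferentiated cells and for EB day 4, nor slide from culture format where EB is set against ML. Within each culture format, day 1 and day 3 share a slide. Between 52.1% and 63.8% of spots per array were well above background, and the median log2 change of all genes ran from -0.14 to 0.13 over the 11 comparisons. A gene was called in a comparison at a Benjamini-Hochberg adjusted p under 0.05 from limma's moderated test over all 12 arrays. Each change carries its SE, with 2 arrays in a group (n = 2). The SE rests on a moderated spread of the gene pooled over all 6 groups. It is therefore the same in every comparison of 2 groups and is not the spread of the groups compared.

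Krt8, the type II keratin of the first embryonic epithelia, was lower in undifferentiated cells and EB day 1 than from day 3 on. It was already clearly detected in those earlier groups, with a level above the scaling percentile on every array. The 2 arrays of each group read 3.45 and 3.73 in undifferentiated cells, 3.99 and 3.85 in EB day 1, 5.76 and 6.70 in EB day 3, 7.07 and 7.46 in EB day 4, 6.40 and 4.79 in ML day 1, and 6.96 and 6.01 in ML day 3. No array of the day 3 or day 4 groups overlapped undifferentiated cells or EB day 1. Both ML day 1 arrays also lay above those groups, 1.60 apart from each other. Against undifferentiated cells Krt8 rose 6.23-fold in EB day 3 (log2 change 2.64 ± 0.53, adjusted p = 0.00844), 7.43-fold in ML day 3 (2.89 ± 0.53, adjusted p = 0.00588) and 12.7-fold in EB day 4 (3.67 ± 0.53, adjusted p = 0.000818). In bulk RNA such a rise cannot be told apart from more cells that carry the transcript. In EB day 1 the log2 change was 0.33 ± 0.53 (adjusted p = 0.695), and in ML day 1 it was 2.00 ± 0.53 (adjusted p = 0.0324). In order of level the groups ran EB day 4, ML day 3, EB day 3, ML day 1, EB day 1 and undifferentiated. ML day 3 overlapped EB day 3, and EB day 3 overlapped ML day 1. The other Krt8 probe gave group means between 3.22 and 7.30 in the same order.

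Krt18, the type I partner of Krt8, followed a similar course. Its arrays read 3.89 and 4.79 in undifferentiated cells, 4.53 and 4.30 in EB day 1, 6.02 and 6.94 in EB day 3, 7.20 and 7.47 in EB day 4, 6.37 and 4.98 in ML day 1, and 7.68 and 6.52 in ML day 3. Undifferentiated cells and EB day 1 overlapped, and every other group lay above both. Krt18 rose 7.98-fold in EB day 4 (3.00 ± 0.55, adjusted p = 0.00279), 6.77-fold in ML day 3 (2.76 ± 0.55, adjusted p = 0.00847) and 4.40-fold in EB day 3 (2.14 ± 0.55, adjusted p = 0.0231). Unlike Krt8, it was not called in ML day 1 (1.33 ± 0.55, adjusted p = 0.119). In EB day 1 its change was 0.08 ± 0.55 (adjusted p = 0.939). Over the 12 arrays the levels of Krt8 and Krt18 correlated at 0.980 (Pearson, given without a test because the arrays share groups, slides and scaling).

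Krt19, a type I keratin with no tail domain, was highest in ML day 3. Its arrays read 0.86 and 2.67 in undifferentiated cells, 1.07 and 0.84 in EB day 1, 2.98 and 3.39 in EB day 3, 2.61 and 3.13 in EB day 4, 3.93 and 2.56 in ML day 1, and 5.97 and 4.01 in ML day 3. Both ML day 3 arrays lay above every array of the other groups, and undifferentiated replicate 2 reached into EB day 4 and ML day 1. Krt19 rose against undifferentiated cells in ML day 3 (3.23 ± 0.74, adjusted p = 0.0144). The other groups of later culture did not pass, with 1.42 ± 0.74 in EB day 3 (adjusted p = 0.190) and 1.11 ± 0.74 in EB day 4 (adjusted p = 0.257).

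Krt7, a type II keratin of ducts and of trophoblast, was not called in any of the 11 comparisons. Its arrays read -0.45 and 1.10 in undifferentiated cells, -0.47 and -1.05 in EB day 1, 0.55 and 0.92 in EB day 3, 0.89 and 0.65 in EB day 4, 1.26 and -0.50 in ML day 1, and 2.37 and 1.34 in ML day 3. Here too ML day 3 was above all other arrays, while EB day 3, EB day 4, ML day 1 and undifferentiated cells overlapped. The change in ML day 3 against undifferentiated cells was 1.53 ± 0.64 (adjusted p = 0.113), with a 95% interval from 0.08 to 2.97. Krt7 and Krt19 correlated at 0.919 over the 12 arrays, against 0.680 for Krt7 with Krt8. The second Krt7 probe was dimmer (group means -3.57 to -1.14) and was also highest in ML day 3 and lowest in EB day 1.

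**Figure D1:**
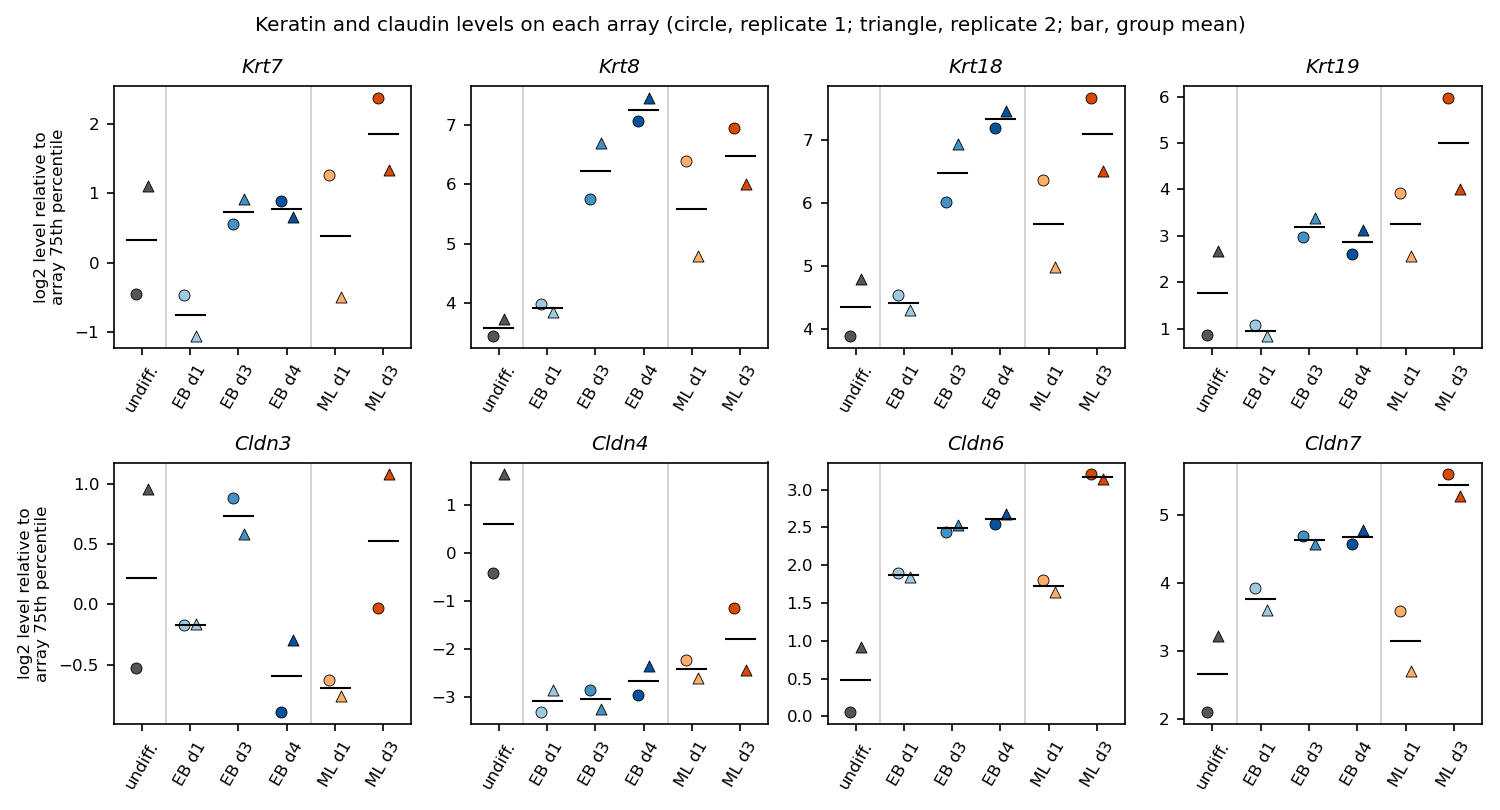
Level of each of the 8 genes on the 12 arrays (vertical axis, log2 signal relative to the array's 75th percentile; each panel has its own range) by group, for undifferentiated cells (undiff.), embryoid bodies (EB) and mono layer cultures (ML) at day 1, 3 or 4 (d). Krt8 and Krt18 are higher in EB day 3, EB day 4 and ML day 3 than in undifferentiated cells and EB day 1. Cldn4 is higher on both undifferentiated arrays (-0.42 and 1.64) than on any other array.

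Cldn6, the early epithelial claudin, had the smallest spread between the arrays of a group (pooled SD 0.26) and rose in every group against undifferentiated cells. Its arrays read 0.05 and 0.92 in undifferentiated cells, 1.90 and 1.84 in EB day 1, 2.44 and 2.54 in EB day 3, 2.54 and 2.67 in EB day 4, 1.81 and 1.64 in ML day 1, and 3.20 and 3.14 in ML day 3. The order was ML day 3, EB day 4, EB day 3, EB day 1, ML day 1 and undifferentiated, with no overlap between neighbours, although EB day 4 and EB day 3 differed by only 0.12 ± 0.27 (adjusted p = 0.798). The rise was 2.61-fold in EB day 1 (1.38 ± 0.27, adjusted p = 0.0157) and 2.36-fold in ML day 1 (1.24 ± 0.27, adjusted p = 0.0183). By the third day it was 4.00-fold in EB (2.00 ± 0.27, adjusted p = 0.0015) and 6.43-fold in ML (2.69 ± 0.27, adjusted p = 0.00053), and in EB day 4 it was 4.35-fold (2.12 ± 0.27, adjusted p = 0.000437).

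Cldn7 was called against undifferentiated cells in EB day 3, EB day 4 and ML day 3. Its arrays read 2.10 and 3.22 in undifferentiated cells, 3.93 and 3.60 in EB day 1, 4.69 and 4.57 in EB day 3, 4.57 and 4.77 in EB day 4, 3.59 and 2.70 in ML day 1, and 5.60 and 5.28 in ML day 3. ML day 3 lay above all other arrays, EB day 3 overlapped EB day 4, and ML day 1 overlapped undifferentiated cells. Cldn7 rose 3.93-fold in EB day 3 (1.98 ± 0.39, adjusted p = 0.00816), 4.04-fold in EB day 4 (2.02 ± 0.39, adjusted p = 0.00362) and 6.88-fold in ML day 3 (2.78 ± 0.39, adjusted p = 0.00204). On the first day the changes were 1.11 ± 0.39 in EB (adjusted p = 0.0894) and 0.49 ± 0.39 in ML (adjusted p = 0.400). The EB day 1 arrays lay above both undifferentiated arrays, the EB day 1 change was called without undifferentiated replicate 2 (1.67, adjusted p = 0.0482), and EB day 3 was 0.87 above EB day 1 (adjusted p = 0.255), so when in EB the level changed is not resolved. Cldn6 and Cldn7 correlated at 0.947 over the 12 arrays.

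Cldn4, a sealing claudin, fell in every group against undifferentiated cells. Its arrays read -0.42 and 1.64 in undifferentiated cells, -3.32 and -2.84 in EB day 1, -2.84 and -3.25 in EB day 3, -2.95 and -2.35 in EB day 4, -2.23 and -2.60 in ML day 1, and -1.14 and -2.42 in ML day 3. No array of the other groups reached undifferentiated cells, whose own arrays differed (-2.06, replicate 1 minus replicate 2), and the 5 later groups formed a chain in which each overlapped the next. The log2 change was -3.69 ± 0.63 in EB day 1 (adjusted p = 0.0106), -3.66 ± 0.63 in EB day 3 (adjusted p = 0.00442) and -3.27 ± 0.63 in EB day 4 (adjusted p = 0.0035). In ML it was -3.03 ± 0.63 at day 1 (adjusted p = 0.0167) and -2.40 ± 0.63 at day 3 (adjusted p = 0.0247). Over the 12 arrays Cldn4 correlated at -0.534 with Cldn6 and at 0.236 with its neighbour Cldn3.

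Cldn3 was not called in any comparison and had the narrowest range, 1.97 over the 12 arrays. Its arrays read -0.52 and 0.96 in undifferentiated cells, -0.17 and -0.17 in EB day 1, 0.89 and 0.59 in EB day 3, -0.90 and -0.30 in EB day 4, -0.63 and -0.76 in ML day 1, and -0.03 and 1.08 in ML day 3. The undifferentiated arrays overlapped every group except ML day 1. The widest change was -1.33 ± 0.49 from EB day 3 to EB day 4 (adjusted p = 0.105).

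Arrays of 1 group differed from each other in these genes. In undifferentiated cells replicate 2 was higher for all 8 genes, at least 2-fold for 5 of them, against 11.9% of all genes that were 2-fold apart. In ML day 1 replicate 1 was higher for all 8 genes, at least 2-fold for 4, all of them keratins, against 4.15% of all genes. In ML day 3 replicate 1 was higher for 7 of 8, Cldn3 being the exception, and at least 2-fold apart were 5 genes against 18.3% of all genes. None of the 8 was 2-fold apart in EB day 1, EB day 3 or EB day 4, against 3.39%, 8.26% and 5.30% of all genes. These counts use the brightest probe of each gene. The other Krt8 probe was more than 2-fold apart in EB day 3 (-1.18, replicate 1 minus replicate 2) and in ML day 3 (1.11). The second Krt7 probe was less than 2-fold apart in ML day 3 (0.75). The summed level (on the linear scale, with the 75th percentile as 1) of 14 fibroblast markers was 175 on undifferentiated replicate 1 and 66.0 on replicate 2, against 26.3 to 54.0 in the other groups. Among these markers, Postn was well above background on no array, and Lum on no array outside EB day 1. Their part in the undifferentiated levels was not tested.

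**Figure D2:**
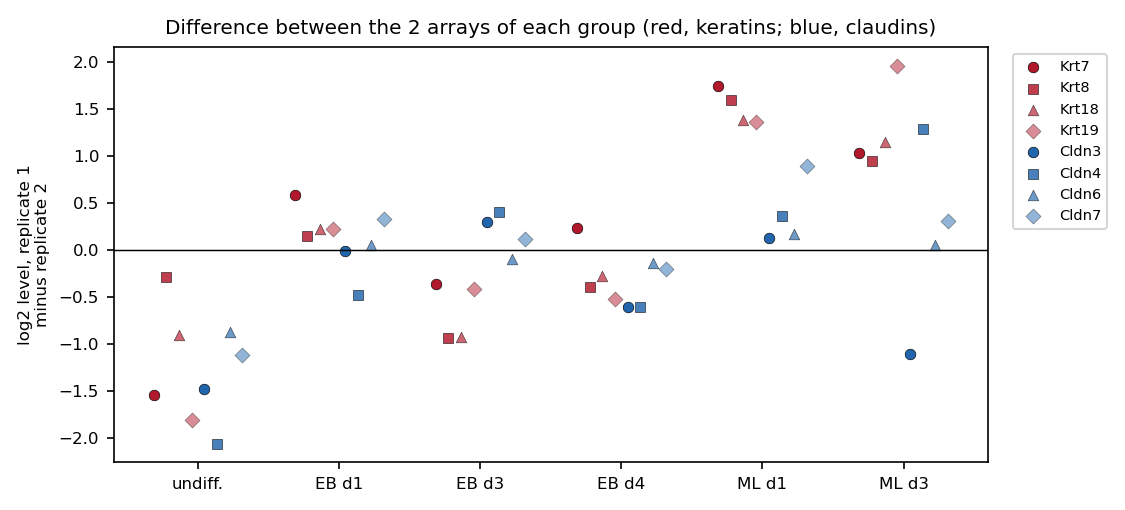
Difference between the 2 arrays of each group for the 8 genes (vertical axis, log2 level of replicate 1 minus replicate 2). All 8 points lie below 0 in undifferentiated cells and above 0 in ML day 1, and the keratins are above 0 in ML day 3.

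The first day was compared with undifferentiated cells in each format. EB day 1 against undifferentiated cells gave 1 gene higher (Cldn6) and 1 lower (Cldn4) of 8, where 13.4% of all genes were called (7.98% higher and 5.39% lower). ML day 1 gave 2 higher (Krt8 and Cldn6) and 1 lower (Cldn4), where 18% of all genes were called (11.6% higher and 6.43% lower). The median change of the 8 genes was -0.15 in EB day 1 and 0.86 in ML day 1, beside medians of 0.09 and 0.13 for all genes. A fit of only the groups compared called 0 of the 8 in either comparison, as did leaving out EB day 1 replicate 1 or EB day 1 replicate 2 in EB day 1. In ML day 1 leaving out replicate 1 called 0, and leaving out replicate 2 or undifferentiated replicate 2 called 1. Without ML day 1 replicate 1 the change of Krt8 was 1.20. The Krt8 call in ML day 1 held in 7 of 12 fits with a single array left out and in 4 of 8 other settings. Besides the fit of only the groups compared, it was lost after quantile normalization (1.57, adjusted p = 0.101). The same held for the deposited values (1.58, adjusted p = 0.100) and for dropping the filter (2.00, adjusted p = 0.0525). Without undifferentiated replicate 2 the change of Cldn4 in ML day 1 was -2.0 (adjusted p = 0.0742), and without undifferentiated replicate 1 that of Cldn6 was 0.80.

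By the third day 5 of the 8 were called in EB and 6 in ML. EB day 3 had 4 genes higher (Krt8, Krt18, Cldn6 and Cldn7) and 1 lower (Cldn4), where 23.7% of all genes were called (13% higher and 10.7% lower). ML day 3 had 5 higher, with Krt19 added, and 1 lower (Cldn4), where 23.5% of all genes were called (12.7% higher and 10.9% lower). The median of the 8 was 1.70 in EB day 3 and 2.72 in ML day 3, beside 0.05 and 0.03 for all genes. These comparisons share the undifferentiated arrays. Leaving out EB day 3 replicate 2 ended the calls of Krt8 (2.17, adjusted p = 0.0613) and Krt18 (1.68, adjusted p = 0.137) in EB day 3, and so did leaving out undifferentiated replicate 1 for Krt18 (1.68, adjusted p = 0.112). In ML day 3 leaving out replicate 1 ended the calls of Krt18 (2.18, adjusted p = 0.0529) and Krt19 (2.25, adjusted p = 0.0832), and undifferentiated replicate 1 ended that of Krt19 (2.32, adjusted p = 0.0723). The Cldn4 call in ML day 3 was lost without undifferentiated replicate 2 (-1.37, adjusted p = 0.125) or ML day 3 replicate 2 (-1.75, adjusted p = 0.0984).

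EB day 4 had the same counts as EB day 3, 4 higher (Krt8, Krt18, Cldn6 and Cldn7) and 1 lower (Cldn4), with a median of 1.56 beside -0.04 for all genes. Here 40.8% of all genes were called (18.8% higher and 22.1% lower), and group, slide and scan day cannot be told apart. These 5 calls held under every alternative setting and with each array left out.

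Day 3 was compared with day 1 within a slide for each culture format. In EB 1 of the 8 genes was called, Krt8, at 4.95-fold (2.31 ± 0.53, adjusted p = 0.0383), where 5.42% of all genes were called (3.09% higher and 2.33% lower). Krt18 was close behind it at 2.06 ± 0.55 (adjusted p = 0.067), and Krt19 was at 2.22 ± 0.74 (adjusted p = 0.126). The Krt8 call was lost in a fit of scan day 2 alone, which has 8 arrays (adjusted p = 0.0767), without EB day 3 replicate 2 (1.84, adjusted p = 0.278), and without either EB day 1 array (adjusted p = 0.152 and 0.217) or either EB day 4 array (adjusted p = 0.0587 for each). A fit of the 4 EB day 1 and day 3 arrays alone called Krt8 and Krt19, the latter at an adjusted p of 0.0318.

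In ML the 2 genes that rose from day 1 to day 3 were Cldn7, 4.90-fold (2.29 ± 0.39, adjusted p = 0.00786), and Cldn6, 2.73-fold (1.45 ± 0.27, adjusted p = 0.0108), where 12.4% of all genes were called (5.77% higher and 6.65% lower). Krt8 changed by 0.89 ± 0.53 (adjusted p = 0.287) from an ML day 1 level that its own arrays split. Without ML day 1 replicate 2 neither claudin was called (Cldn7 1.85, adjusted p = 0.0752, and Cldn6 1.36, adjusted p = 0.0922), nor without ML day 3 replicate 1 (Cldn7 adjusted p = 0.0513 and Cldn6 adjusted p = 0.0524). Without ML day 3 replicate 2 there were 4 called genes, with Krt18 (2.00, adjusted p = 0.0479) and Krt19 (2.73, adjusted p = 0.0333) added.

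The difference between the 2 day effects was tested as an interaction, and none of the 8 genes was called (0.243% of all genes were). At an unadjusted p under 0.05 there were 1804 of all genes and 1 of the 8, Cldn7, whose day effect was smaller in EB than in ML (-1.42 ± 0.55, adjusted p = 0.410). For Krt8 the interaction was 1.42 ± 0.74 in the other direction (adjusted p = 0.595), with a 95% interval from -0.26 to 3.10. Different calls in EB and ML are therefore not shown to be different responses.

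**Figure D3:**
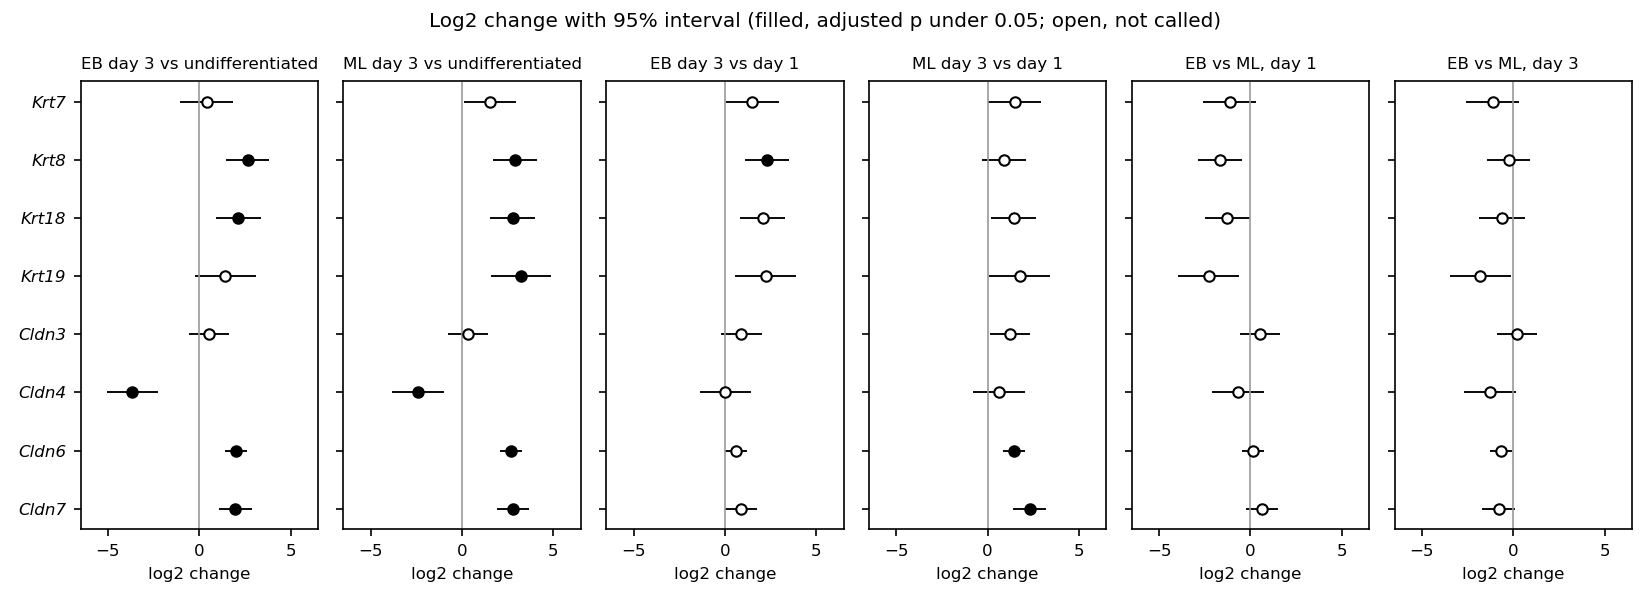
Log2 change of the 8 genes with its 95% interval (horizontal axis) in 6 comparisons, with filled points for an adjusted p under 0.05. Cldn4 is below 0 and Krt8, Cldn6 and Cldn7 are above 0 in both comparisons of a day 3 group with undifferentiated cells, and no point is filled where EB is set against ML.

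Between culture formats and between EB day 4 and EB day 3, limma called none of the 8 genes. EB day 1 against ML day 1 had 3 of 8 at an unadjusted p under 0.05, as had 1642 of the 17727 genes, and 0.0677% of all genes were called. The widest differences were -2.29 ± 0.74 for Krt19 (adjusted p = 0.356) and -1.67 ± 0.53 for Krt8 (adjusted p = 0.342), both higher in ML. EB day 3 against ML day 3 had 2 at an unadjusted p under 0.05 (3129 of all genes), Krt19 at -1.81 ± 0.74 (adjusted p = 0.242) and Cldn6 at -0.69 ± 0.27 (adjusted p = 0.222), where 3.32% of all genes were called. Leaving out ML day 3 replicate 2 called Krt19 there (-2.79, adjusted p = 0.0469). EB day 4 against EB day 3 had 1 (5301 of all genes), Cldn3, where 12.7% of all genes were called (3.9% higher and 8.82% lower), and Cldn3 was called when undifferentiated replicate 1 or undifferentiated replicate 2 was left out (adjusted p = 0.0475 for each). Krt8 stood 1.03 ± 0.53 higher in EB day 4 than in EB day 3 (adjusted p = 0.223), with a 95% interval from -0.15 to 2.22.

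**Figure D4:**
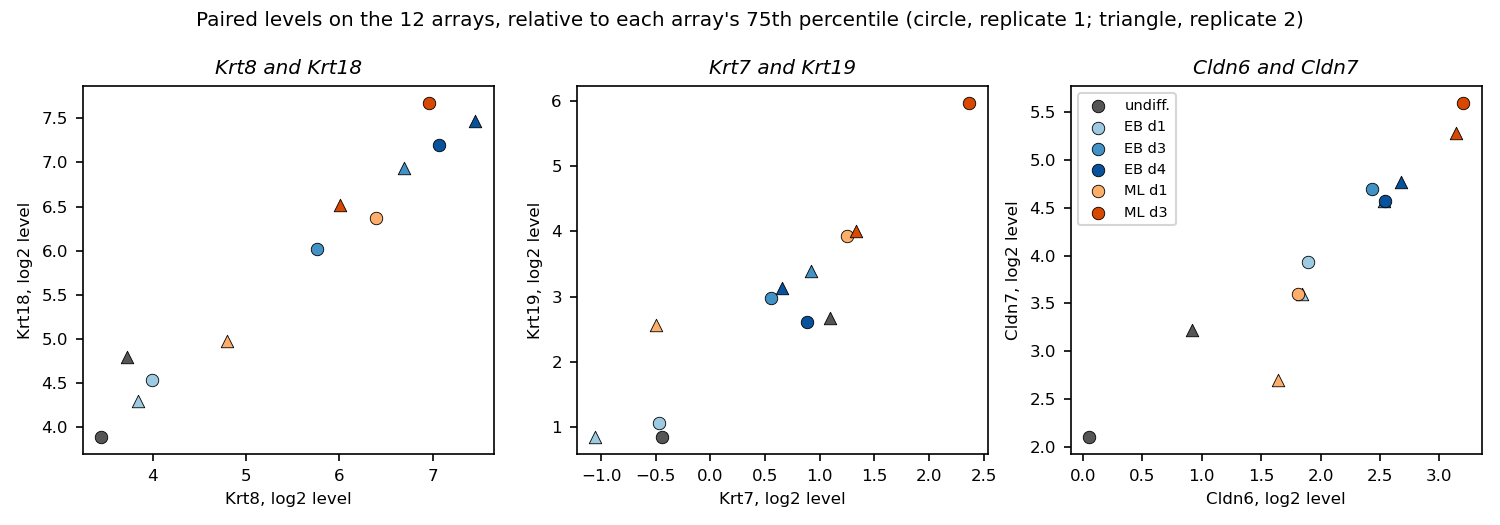
Levels of Krt8 and Krt18, Krt7 and Krt19, and Cldn6 and Cldn7 on the 12 arrays (both axes, log2 signal relative to the array's 75th percentile; shape is the replicate and colour the group). The 3 pairs correlate at 0.980, 0.919 and 0.947, and the 2 arrays of ML day 1 lie apart along the Krt8 and Krt18 line.

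Among 14940 other named genes, those most like the mean of Krt8 and Krt18 over the 12 arrays were Ddn (Pearson r = 0.981), Cited1 (0.956), Rnaset2b (0.953), Dsp (0.947), F5 (0.943), Fam107b (0.940), Tgfb2 (0.939) and Adgrg1 (0.935). Dsp encodes desmoplakin, which ties keratin filaments to desmosomes, and Cited1 a transcriptional co-regulator. Dsp stood at -1.03 ± 0.48 (SD) in undifferentiated cells, -0.80 ± 0.17 in EB day 1, 1.08 ± 0.76 in EB day 3, 2.12 ± 0.05 in EB day 4, -0.45 ± 1.06 in ML day 1 and 1.37 ± 1.42 in ML day 3. Its 2 arrays of ML day 1 and of ML day 3 were split in the direction of Krt8, with replicate 1 the higher. F5, coagulation factor V, was not well above background in undifferentiated cells, EB day 1 and ML day 1, so that its correlation rests partly on background. For the mean of Cldn6 and Cldn7 the closest were Pgap4 (0.972), Tmem163 (0.969), Nudt11 (0.964), Marveld2 (0.960), Stard10 (0.958), Tmx1 (0.949), Tm6sf1 (0.948) and Gcnt1 (0.944). Marveld2 encodes tricellulin, the protein of tight junctions where 3 cells meet. Its arrays read -2.0 and -1.86 in undifferentiated cells and -0.37 and -0.28 in ML day 3.

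Tight junction partners of the claudins were measured as a list of 18 genes (scaffolds, other membrane proteins and polarity proteins), all tested. In EB day 3 against undifferentiated cells 9 rose and 1 fell, led by Cxadr (1.84, adjusted p = 0.019), a cell adhesion protein of the junction, the scaffold gene Patj (1.60, adjusted p = 0.0097), the polarity gene Crb3 (1.37, adjusted p = 0.045) and the scaffold gene Magi3 (1.34, adjusted p = 0.0059). The gene that fell was Prkci (-0.86), a polarity kinase. In ML day 3 also 9 rose and 1 fell, led by Crb3 (2.58, adjusted p = 0.0038), the membrane protein gene Marveld3 (2.30, adjusted p = 0.0026), Patj (1.64, adjusted p = 0.0087) and Marveld2 (1.61, adjusted p = 0.0016), whereas the cytoplasmic plaque gene Cgnl1 fell (-1.26). The list medians were 0.61 and 1.00 beside 0.05 and 0.03 for all genes. Fits of only the groups compared called 3 of the 18 in EB day 3 and 2 in ML day 3 in all. From day 1 to day 3, 1 rose in EB (Patj, 1.35) and 5 rose in ML, where occludin (Ocln, 2.17, adjusted p = 0.037), the first membrane protein of tight junctions to be identified, joined Crb3, Marveld3, Patj and Marveld2, and Cgnl1 fell (-1.90). Prkci, Cgnl1 against undifferentiated cells and Patj in ML were named after their values had been seen. Tjp1, the scaffold ZO-1, was called in EB day 4 only (1.33 against undifferentiated cells, adjusted p = 0.0033), and its change was 0.49 in EB day 3 (adjusted p = 0.19) and 0.69 in ML day 3 (adjusted p = 0.077).

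Adhesion, splicing and surface protease genes of epithelia made up a list of 12 genes, all tested. In ML day 3 against undifferentiated cells 8 rose and 0 fell, among them the membrane protease gene Prss8 (1.90), Cd24a (1.83) and the protease inhibitor gene Spint2 (1.80). In EB day 3 there were 4 that rose, Cd24a (2.94), Spint2 (1.41), Rab25 (1.29) and Prss8 (1.26), and 0 fell. Fits of only the groups compared called 3 and 2. Cdh1 (E-cadherin) was high already in undifferentiated cells (4.03 and 4.02), stood at 4.94 and 4.27 in EB day 3 and at 5.21 and 4.79 in ML day 3, and was called there (0.98, adjusted p = 0.022). From EB day 3 to EB day 4 Cdh1 fell by 1.00 on the log2 scale (adjusted p = 0.033), as did Ap1m2 (-1.24) and the splicing factor gene Esrp1 (-1.13), while the changes of Krt8 (1.03) and Krt18 (0.86) were not called. A fit of only EB day 3 and EB day 4 called 0 of the 12 there, and slide and scanner differ between these groups. Epcam, an adhesion protein that binds Cldn7, was between 2.46 and 3.51 on all 12 arrays and was not called in any of the 11 comparisons.

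The desmosome and keratin linker list had 11 tested genes. In ML day 3 against undifferentiated cells 4 rose, Dsp (2.40, adjusted p = 0.032), Perp (2.14), Dsg2 (1.90) and Dsc2 (1.76), and 0 fell. This count was 1 in a fit of only the groups compared and 2 to 4 with single arrays left out. In EB day 3 only Dsg2 was called (1.44, adjusted p = 0.022). In EB day 4 Dsp (3.16, adjusted p = 0.0059), Dsc2 (1.87) and Dsg2 (1.62) rose while 4 plaque genes fell, which were Pkp3 (-1.53) and, named after their values had been seen, Jup (-1.50), Ppl (-1.43) and Evpl (-1.23). The list median was 0.51 in ML day 3, 0.19 in EB day 3 and -0.36 in EB day 4.

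Of 14 other keratins tested, 3 fell and 0 rose from EB day 1 to EB day 3, which were Krt17, a keratin of basal and stressed epithelium (-2.38, adjusted p = 0.0099), Krt12 (-2.32, adjusted p = 0.045, well above background on 1 of the 2 EB day 3 arrays) and Krt23 (at least 1.57-fold lower, adjusted p = 0.047). The Krt17 arrays went from 1.68 and 1.58 to -0.63 and -0.87, and in EB day 3 the Krt23 signal did not clear background, so its fold is a bound, set against the lowest signal well above background on those arrays. The count was 1 in a fit of only the groups compared and 0 to 2 with any array left out. Krt17 fell from ML day 1 to ML day 3 as well (-2.23, adjusted p = 0.0061), with Krt9 (-1.42, 1 of 2 ML day 3 arrays well above background) and with Krt23, which was not above background in either group. Krt13, a type I keratin of stratified mucosa, rose against undifferentiated cells in ML day 3 (2.61, adjusted p = 0.0098) and EB day 4 (1.72, adjusted p = 0.031). In all, 2 of the 14 rose and 2 fell in ML day 3, and 1 rose and 5 fell in EB day 4, where normexp background called 2. Of 9 other claudins tested, 1 rose in EB day 3, Cldn9, the neighbour of Cldn6 (0.77, adjusted p = 0.034), and Cldn9 rose in ML day 3 too (1.17, adjusted p = 0.0066). In EB day 4 Cldn11, the claudin of myelin and Sertoli cells, was 3.49 above undifferentiated cells (adjusted p = 0.0035) and 3.10 above EB day 3 (adjusted p = 0.021), with its EB day 4 arrays at -3.37 and -1.01. Cldn11 was well above background on 1 of 2 arrays in undifferentiated cells and 1 of 2 in EB day 3. Cldn5, the endothelial claudin, was lower in EB day 4 than in undifferentiated cells (-2.30, adjusted p = 0.014). Cldn20, Cldn25, Krt42 and Grhl3 were not analysed here.

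**Figure D5:**
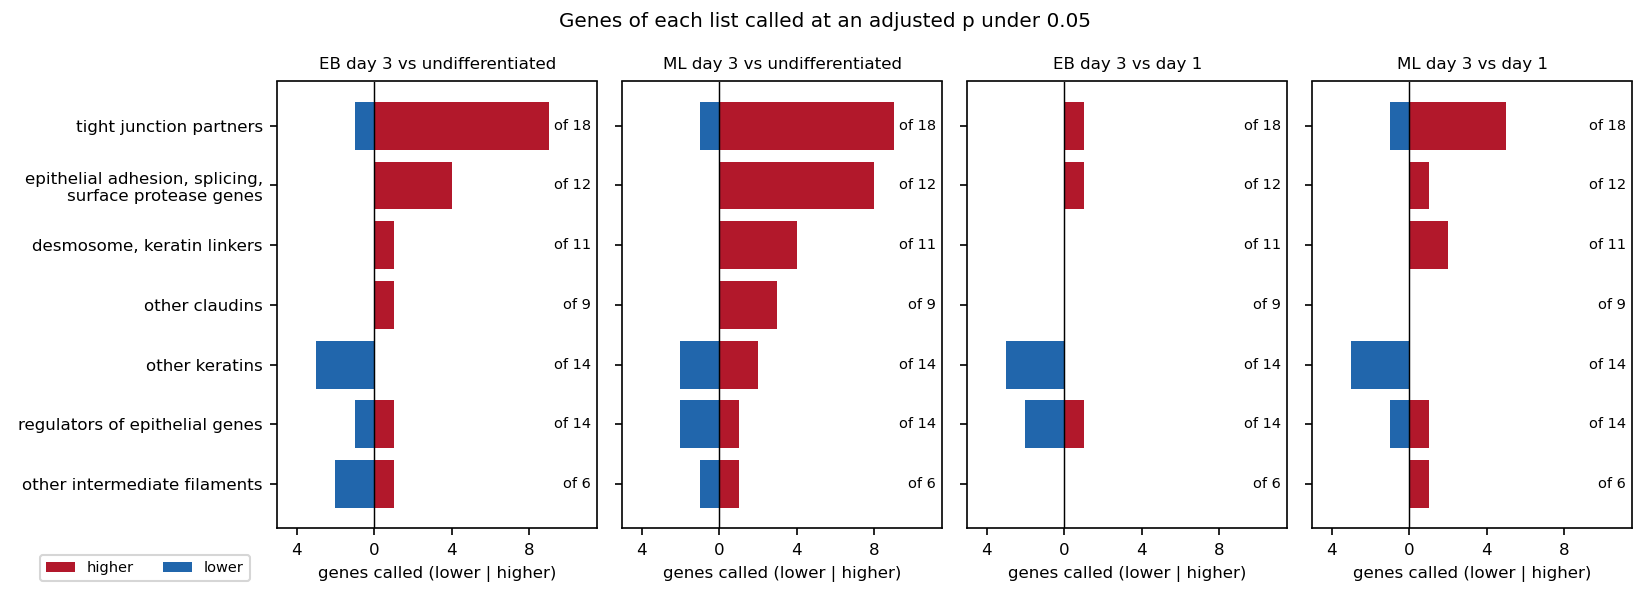
Number of genes of each of 7 lists called higher (red, right) or lower (blue, left) in 4 comparisons, with the number tested at the right of each bar. Tight junction partners have 9 higher and 1 lower in both day 3 groups against undifferentiated cells, and the adhesion list has 4 higher in EB day 3 and 8 in ML day 3.

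Factors that switch epithelial genes on or off made up a list of 14 tested genes, of which 1 rose and 2 fell from EB day 1 to EB day 3. Snai1, the repressor of E-cadherin, rose (3.44, adjusted p = 0.0034), and the Grainyhead-like activators of epithelial genes fell, Grhl1 (-1.85, adjusted p = 0.015) and Grhl2 (-1.30, adjusted p = 0.038). These 3 calls became 1 to 5 with single arrays left out. The Snai1 arrays went from -1.38 and -1.52 to 1.40 and 2.58. In ML Grhl2 also fell from day 1 to day 3 (-1.39, adjusted p = 0.018) and the repressor gene Zeb2 rose (1.88, adjusted p = 0.038). Between the day 3 groups, Snai1 was higher in EB (2.46, adjusted p = 0.014) and Grhl1 was higher in ML (-2.0, EB minus ML, adjusted p = 0.014). Grhl2 itself peaked on the first day, at 1.99 and 2.55 in EB and 2.31 and 2.67 in ML, against 1.31 and 0.66 in undifferentiated cells. From EB day 3 to EB day 4 Snai2, another repressor, rose (4.35, adjusted p = 0.011), from -2.36 and -1.54 to 1.09 and 3.72, and so did Zeb1 (2.12, adjusted p = 0.028), from -3.22 and -1.37 to -0.48 and 0.13. Zeb1 was not called in EB day 4 against undifferentiated cells (0.77, adjusted p = 0.25). Fits of only the groups compared called 0 of the 14 in EB day 4 against EB day 3. The same held for EB day 3 against ML day 3. EB day 4 lies on its own slide and was scanned on another day with another scanner. Among 6 other intermediate filament genes tested, Lmna, a lamin of differentiated cells, fell in EB day 3 (-2.42, adjusted p = 0.0019), and Nes (nestin) rose in ML day 3 (2.61, adjusted p = 0.0025). Vim (vimentin) was called only in EB day 1 against undifferentiated cells (-1.67, adjusted p = 0.044).

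Markers of several cell types were summed on each array, and their part in the keratin and claudin changes was not tested. The summed level of 10 pluripotency markers went from 697 to 797 in undifferentiated cells down to 174 to 215 in EB day 3, 45.5 to 60.1 in EB day 4 and 136 to 286 in ML day 3. The 16 markers of visceral and parietal endoderm summed to 11.6 to 13.9 in undifferentiated cells, 69.3 to 69.8 in EB day 3, 76.4 to 78.9 in EB day 4 and 30.4 to 39.4 in ML day 3, with Sox17, Gata6 and Foxa2 up in EB day 3 and Apoa1 well above background on both arrays of no group. Of the 14 tested, 4 rose and 2 fell in EB day 3, and 2 rose and 2 fell in ML day 3. The mean log2 level went down from undifferentiated cells to EB day 3 for Cubn (-1.91 to -3.69), Lama1 (-0.80 to -2.36) and Amn (-0.94 to -1.66). It also went down for Dab2 (-0.70 to -1.43), Thbd (-2.83 to -5.21) and Afp (-3.77 to -5.18). The mean level went up for Gata4 (-4.53 to -3.04), Pdgfra (-2.31 to -0.36), Sox7 (-3.78 to -3.31) and Sparc (3.20 to 3.46) too. Hnf4a was dim in both groups (-5.12 and -5.06), and Ttr was not well above background on both arrays of either. The largest part of the endoderm sum came from Foxa2 in EB day 3 (log2 levels 5.50 and 5.15). In ML day 3 it came from Sparc (5.06 and 4.64). The 12 trophoblast markers, which include Krt7, summed to 6.84 to 7.85 in undifferentiated cells, 15.4 to 18.6 in EB day 3, 26.5 to 28.8 in EB day 4 and 7.76 to 10.1 in ML day 3, and the defining genes Elf5, Tpbpa and Gcm1 did not reach well above background on both arrays of any of these groups. In ML day 3, where Krt7, Krt19, Cldn6 and Cldn7 were highest, 2 of the 9 trophoblast markers tested rose (Eomes and Cdx2) and 2 fell. Surface ectoderm markers summed to 0.56 to 0.58 in undifferentiated cells, 1.14 to 5.47 in EB day 3, 13.2 to 13.5 in EB day 4 and 1.01 to 1.30 in ML day 3, with Trp63 and Dlx5 not above background. Msx2 made up most of the EB day 4 sum, with log2 levels of 3.68 and 3.70 there against -3.53 and -3.19 in undifferentiated cells. Of the 6 surface ectoderm markers tested, 1 rose and 1 fell in EB day 4 against undifferentiated cells. Mesoderm markers summed to 1.05 to 1.15 in undifferentiated cells, 14.8 to 52.4 in EB day 3, 58.0 to 80.2 in EB day 4 and 2.91 to 4.73 in ML day 3. In EB day 4, where Krt8 and Krt18 were highest, 7 of 8 mesoderm markers rose and 1 fell against undifferentiated cells, and 5 of 9 trophoblast markers rose and 3 fell. Hand1 is on both of these lists, so the counts and sums are not separate. It made the largest part of the trophoblast sum in EB day 4 (log2 levels 3.27 and 3.60), followed by Cdx2 (2.17 and 2.86).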

How the data were processed

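Total RNA of 12 samples was labelled and hybridised to 1-colour whole mouse genome arrays, per the labels' protocols. Spot intensity and per-spot flags (codes, another kind of value) come from Agilent scanner files made with Feature Extraction 10.5.1.1, 10.7.3.1 or 10.7.1.1, per the file headers, where the submitters' processing notes name 9.5.1.1. The authors also deposited linear intensity with equal quantiles in every column (median 36.6, 75th percentile 488, correlation with the scanner files 0.998 to 1.000), which served as an alternative.

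The processed signal was put on the log2 scale, and from each array its own 75th percentile was subtracted, taken over 43379 non-control spots (326 to 596 in intensity units). Between 51 and 172 outlier spots per array were dropped. Probes had to be well above background on the 2 arrays of some group, and the brightest probe on average stood for a gene. Dim genes are limited by signal over background, and every value by the small number of arrays.

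Limma 3.58.1 in R 4.3.3 (with data.table, version 1.17.8) fitted 6 group means to 12 arrays, after a test on simulated data, and tested 17727 genes in 11 two-sided comparisons. Figures used matplotlib 3.10.9 in Python 3.11.15. The alternatives were normexp background correction with an offset of 50, quantile normalization, use of the deposited values, dropping the filter, a filter on all 12 arrays, averaging the probes of a gene, blocking on the replicate number, fits of only the compared groups or of scan day 2, and leaving out each array. The genes, the 7 gene lists, the 6 marker lists and the tests were chosen with earlier results of these data known. Named beyond the 8 genes are Cdh1, Epcam, Tjp1, Grhl2 and Vim, up to 4 called genes with the largest change per list and comparison, and the 8 genes most like each of 2 pairs. 1 further gene that the rule picks is not reported here.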

Additional observations from a re-analysis of the deposited data

How the results depend on the processing

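Of 744 member changes recomputed under other settings, 726 kept their direction and side of the threshold, 16 lost a call, 2 gained one, none was reversed, and 10 uncalled ones changed sign. With single arrays left out, 1015 of 1056 were kept, 31 lost a call, 10 gained one, none was reversed, and 31 uncalled ones changed sign. In a fit of the compared groups alone the members called were 0 in EB day 1 and 0 in ML day 1, 3 in EB day 3 against undifferentiated cells, 2 in EB day 3 against EB day 1 and 1 in ML day 3 against ML day 1. There Krt18 and Cldn7 were lost in EB day 3 (adjusted p = 0.0592 and 0.0561), and Krt19 and Cldn4 in ML day 3 (adjusted p = 0.0814 and 0.130). For EB day 3 against EB day 1 the count was 2 with normexp background, where Krt18 was added (adjusted p = 0.0322), 0 with no filter, 0 with scan day 2 alone and 0 with the replicate block (Krt8 adjusted p = 0.0511). With single arrays left out the members called ranged from 0 to 3 in EB day 1, 0 to 3 in ML day 1, 3 to 5 in EB day 3, 4 to 6 in ML day 3 and 5 to 6 in EB day 4 against undifferentiated cells. They ranged from 0 to 2 in EB day 3 against EB day 1, 0 to 4 in ML day 3 against ML day 1, 0 to 1 in EB day 4 against EB day 3, and 0 to 1 in EB day 3 against ML day 3, and were 0 in EB day 1 against ML day 1 and in the interaction.

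The clone number was checked as a pairing by correlating the differences between replicates of 2 groups across genes, which gave -0.15 to 0.23, so it was not used as one. The replicate block changed 1 of 88 member results, the Krt8 call above. Fewer arrays in a fit leave fewer degrees of freedom, and for other changes the cause was not tested. Calls over all genes moved more: EB day 4 against undifferentiated cells had 4654 to 13450, EB day 4 against EB day 3 had 239 to 7603, EB day 3 against undifferentiated cells 1639 to 5449, ML day 3 against undifferentiated cells 959 to 5711, EB day 1 against undifferentiated cells 203 to 3691, ML day 1 against undifferentiated cells 278 to 4511, EB day 3 against EB day 1 104 to 1377, ML day 3 against ML day 1 378 to 4757, EB day 3 against ML day 3 0 to 2483, EB day 1 against ML day 1 0 to 23 and the interaction 0 to 297. Normexp background shifted the median change of all genes by 0.16 in EB day 4 against undifferentiated cells and by 0.20 against EB day 3, and quantile normalization shifted ML day 3 against ML day 1 by 0.10. All 8 genes were well above background on every array. Cldn4 was nevertheless dim outside undifferentiated cells, with intensities of 50.1 and 82.0 in EB day 1. Its log2 change in EB day 1 against undifferentiated cells ran from -3.71 to -2.82 over the settings other than leaving out arrays.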
